A study of Mus musculus with 8 samples.

Results

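The genes described here are the ubiquitin-specific proteases (symbols Usp followed by a digit) and the ubiquitin C-terminal hydrolases (symbols Uchl followed by a digit) of the mouse. They were taken from the table of all genes by symbol alone, which gave 55 members of 25574 genes. Their messenger RNAs were followed in 4 non-polysomal (NP) and 4 polysomal (P) RNA-seq libraries from oocytes at nuclear envelope breakdown (NEBD), the step at which the oocyte resumes meiosis. Both datasets came from denuded, fully grown oocytes of CD1 mice aged 8 weeks and primed with pregnant mare serum gonadotropin. All oocytes were released from IBMX, an inhibitor of meiotic resumption, cultured for 180 min and exposed to cycloheximide at 0.1 mg/mL for 10 min before freezing. Each lysate of 200 pooled oocytes was spread on a sucrose gradient by SSP-profiling, and the NP and P parts were collected separately, so NP serves as the reference for P and there is no untreated group. No transcription takes place at this stage, so a messenger RNA can only be stored, translated or degraded.

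Ubiquitin is a small protein that is joined to other proteins as a signal, among other things for destruction by the proteasome. Deubiquitinases cut it off again, and the Usp family is the largest class of these cysteine proteases, while the Uch proteins have a smaller catalytic domain. In the oocyte, ubiquitin-dependent destruction of cyclin B and securin drives the exit from meiosis I, and Uchl1 is long known as an abundant protein of the mouse egg. Messenger RNAs that carry several ribosomes sediment in the polysomal part, although heavy stored particles may sediment there too. The NP part holds stored messenger ribonucleoproteins, ribosomal subunits and single ribosomes, and the top of the gradient was left out of both.

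Stored maternal messenger RNAs are often activated through short motifs at the end of the 3′ untranslated region, where the cytoplasmic polyadenylation element (CPE) works together with the poly(A) signal. The following stretches of 30 bases, read 5′ to 3′ from the GRCm38 genome, are shown because they hold the CPE of the 3 members with such a motif inside the gene as listed in the table, and the poly(A) signal of Uchl1, the most abundant member. Capitals mark the motif.
Usp28, chr9:49042461-49042490, plus strand: caactatgcaggTTTTATaaatgtgcaata
Usp22, chr11:61151785-61151814, minus strand: atcataataaagctgcaTTTTATtctgaaa
Uchl3, chr14:101696050-101696079, plus strand: ctaactcaaaatTTTTAATattttcattaa
Uchl1, chr5:66687196-66687225, plus strand: cttaagaggaagAATAAAactttgctggtg

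The motifs searched were TTTTAT and TTTTAAT for the CPE and AATAAA and ATTAAA for the poly(A) signal, on the transcribed strand only and within the last 100 bases of an annotated 3′ untranslated region. Of the 54 members with such a region, 5 (9.26%) held a CPE, against 18.5% of 11660 genes tested for P against NP. A poly(A) signal was present in 43 members (79.6%) and in 78.6% of the genes tested, and both motifs together in 3 members (5.56%) and in 15.3%. The other 2 members with a CPE were Usp47 and Usp44, whose match lay outside the gene coordinates of the table. A match is a description of letters, and nothing was measured on polyadenylation.

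Levels are given as FPKM, a count of fragments corrected for gene length and for the size of the library. The values are linear and the libraries were not otherwise scaled to each other, so levels of different genes are compared per length. FPKM values of a gene were whole multiples of a step, from which the number behind each library was recovered. It lay between 1299377 (NP2) and 7594637 (NP4) in NP and between 2677946 and 4699328 in P, and 11703 to 13753 genes were above 0 in the NP libraries against 9139 to 11339 in the P libraries. All 10 oocyte markers were detected, with a summed FPKM of 6096 to 12676 in NP and 8337 to 39318 in P. Of 10 markers of granulosa and cumulus cells, Foxl2, Has2, Inhba and Ptx3 were at 0 in all 8 libraries, and the list summed to 6.07 to 75.4 FPKM in NP and 1.61 to 62.7 FPKM in P. Of the 4 listed markers of blood and stroma, Col1a1, Hba-a1 and Ptprc were at 0 throughout, and the list summed to 10.9 to 63.5 FPKM in NP and 6.36 to 77.7 FPKM in P.

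The oocytes held most of the deubiquitinase messengers in both datasets. Of the 55 members, 51 had a mean FPKM above 0.1 in NP and 49 in P, 48 of them in both, and 40 were above 0 in every library. The mean exceeded 10 FPKM for 30 members in NP and 24 in P, and 50 FPKM for 12 and 11 members. The median over the tested members was 16.9 FPKM in NP and 8.96 FPKM in P, above the 5.75 and 3.99 FPKM of all genes tested. Usp18, which removes the ubiquitin-like protein ISG15, and Usp17l5, of the multicopy Usp17-like genes, were listed at 0 in all libraries. Usp44 was above 0 only in NP1, at 0.107 FPKM, and was not tested, which left 52 members in the comparison.

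**Figure D1:**
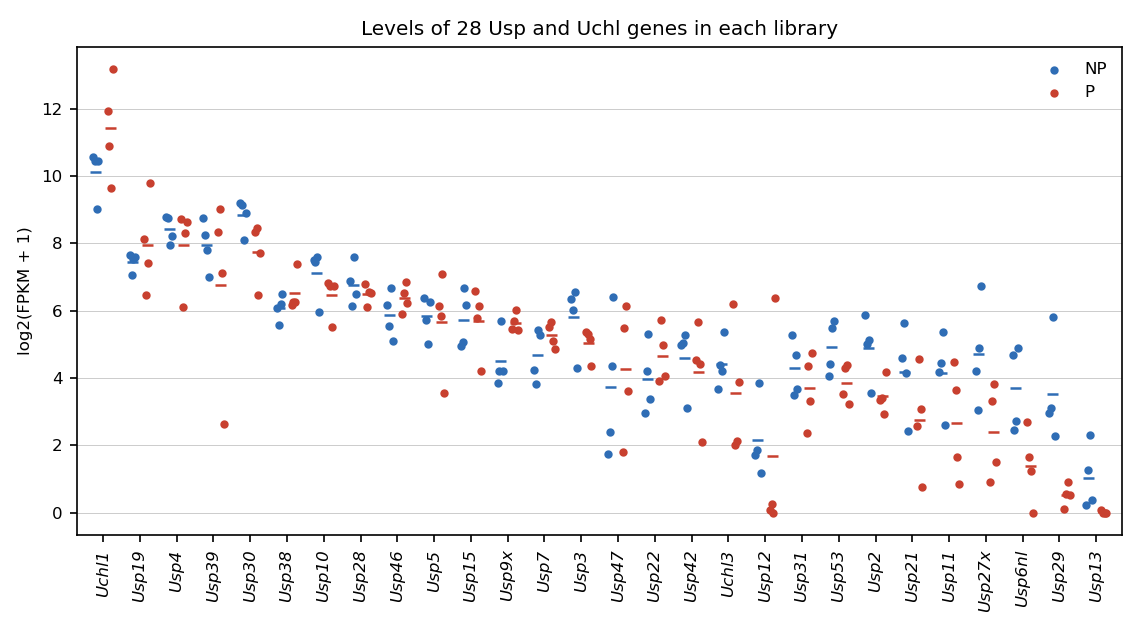
Levels of the 28 named Usp and Uchl genes as log2(FPKM + 1) on the vertical axis, with genes ordered by their mean FPKM in P. Each point is 1 library (blue NP, red P) and each short line the mean of 4 libraries on the log2 scale; Uchl1 stands above the other genes in both datasets, and Usp29 and Usp13 are the genes whose NP points all lie above their P points.

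No member passed the test of P against NP. In limma on log2(FPKM + 1), 0 of 52 members reached an adjusted p of 0.1 in either direction, the smallest adjusted p being 0.405, while 0.021% of all 14292 genes tested were called higher in NP and 0% higher in P. At an unadjusted p under 0.05, 4 members were higher in NP, where 9.47% of all genes were, and 0 members in P, where 0.476% were. The voom method of limma on the recovered steps, which was added after the data had been seen, also called 0 of 51 members, where 0.95% of genes were called higher in NP and 0.015% in P. Its unadjusted p was under 0.05 for 6 members higher in NP (12.2% of genes) and for 1 member, Uchl1, higher in P (0.756% of genes). All 4 NP values lay above all 4 P values for 2 members, Usp29 and Usp13 (5.92% of genes), and the opposite order was found for 0 members (0.357% of genes).

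Most members nevertheless had the lower value in P, as did most genes. The log2 fold change of P over NP was below 0 for 36 of 52 members, as for 71.4% of all genes, with a median of -0.35 over the members and -0.39 over all genes tested. This split depended on the scale: with each library centred on its median the all-gene median moved to 0.57 and only 15 members stayed below 0, and with quantile normalization it moved to -0.02 with 23 members below 0. Median centring also turned the counts at an unadjusted p under 0.05 in limma to 1 member higher in NP (1.24% of genes) and 9 higher in P (19% of genes), and those without overlap to 1 (0.812% of genes) and 6 (12.1% of genes), with 0 members called after adjustment. Set against the median of all genes, 27 members lay above it as deposited, 27 under median centring and 29 under quantile normalization. On mean FPKM, 17 members were more than 2-fold higher in NP (40.6% of genes) and 6 more than 2-fold higher in P (16.9% of genes). These 6 were Uchl1, Usp12, Usp32, Usp34, Usp40 and Usp51, and for Usp12, Usp40 and Usp51 a single library, P4, held over 75% of the P sum.

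**Figure D2:**
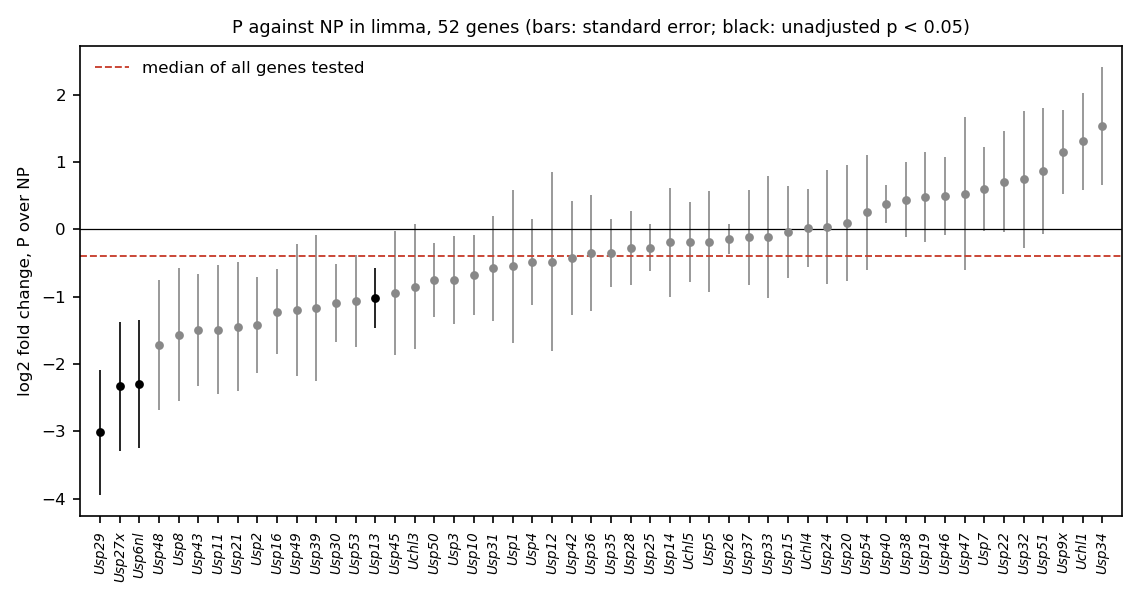
Log2 fold change of P over NP (vertical axis, limma on log2(FPKM + 1)) with its standard error for the 52 tested members, ordered from the lowest, Usp29 at -3.01, to the highest, Usp34 at 1.53. Black points had an unadjusted p under 0.05, none passed after adjustment, and the dashed line is the median of all genes tested, -0.39; under median centring every gene shifts up and the line moves to 0.57.

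Uchl1, an enzyme that binds and recycles free ubiquitin, was by far the most abundant member. It measured 1512, 1388, 517 and 1383 FPKM in NP1 to NP4 and 3912, 1916, 807 and 9246 FPKM in P1 to P4. The P libraries spread more widely than the NP libraries, with P3 below 3 of the NP values and P1, P2 and P4 above all of them. Compared by library number, P lay above NP each time, with P3 at 807 against NP3 at 517 FPKM. The means were 1200 ± 459 FPKM in NP and 3970 ± 3744 FPKM in P (SD, n = 4), which placed Uchl1 at rank 45 of all genes in NP and at rank 9 in P. The log2 fold change was 1.30 (SE 0.72), with an adjusted p of 0.542 in limma and a p of 0.2 in the 2-sided exact permutation test over 70 assignments. Both tests treat the libraries as independent. With the library number as a block, limma gave an SE of 0.48, an unadjusted p of 0.019 and an adjusted p of 0.348. Leaving out each library in turn moved the difference between 0.72 (without P4, exact permutation p of 0.4) and 1.89 (without P3, exact permutation p of 0.029, the smallest that 35 assignments allow). Under median centring it was 2.26 with an exact permutation p of 0.029, the smallest over 70 assignments.

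The oocyte markers also varied between the libraries, in part alongside Uchl1. Their summed FPKM was 12676, 11811, 6096 and 11569 in NP1 to NP4 and 27081, 8723, 8337 and 39318 in P1 to P4. In P2 the marker sum lay below NP1, NP2 and NP4, while Uchl1 lay above all NP libraries. Uchl1 amounted to 11.9, 11.7, 8.48 and 12.0% of the marker sum in NP1 to NP4 and to 14.4, 22.0, 9.68 and 23.5% in P1 to P4. P3 again lay among the NP values, above NP3 and below NP1, NP2 and NP4. The part of the markers in the level of Uchl1 was not tested.

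The 55 members together reached 4167, 3652, 2870 and 3466 FPKM in NP1 to NP4 and 6176, 3851, 2497 and 11554 FPKM in P1 to P4. Uchl1 supplied 36.3, 38.0, 18.02 and 39.9% of the sum in NP1 to NP4 and 63.3, 49.8, 32.3 and 80.0% in P1 to P4. Without it, the other members summed to 2083 to 2654 FPKM in NP and to 1690 to 2308 FPKM in P, so the 2 datasets overlapped.

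**Figure D3:**
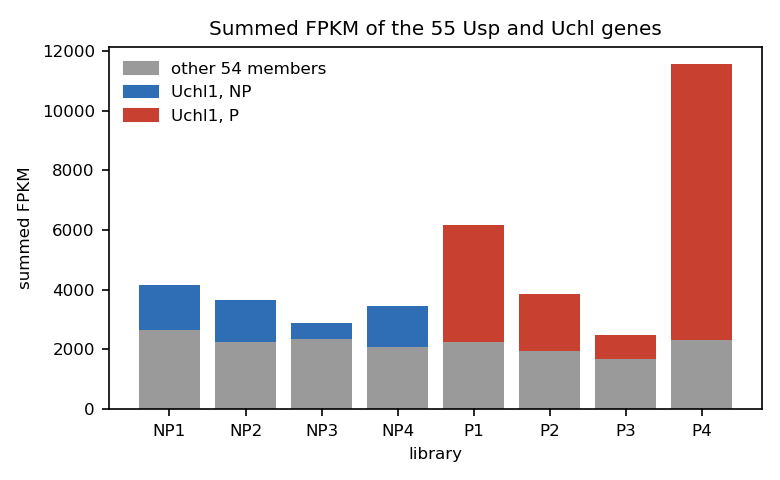
Summed FPKM (vertical axis, linear from 0) of the 55 members in each of the 8 libraries, with Uchl1 in colour and the other 54 members in grey. The grey part stays between 1690 and 2654 FPKM in all libraries, and the coloured part ranges from 517 FPKM in NP3 to 9246 FPKM in P4.

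The other Uch genes were far less abundant. Uchl3, a hydrolase for ubiquitin and the related protein Nedd8, measured 11.8, 19.9, 17.3 and 40.0 FPKM in NP1 to NP4 and 72.2, 3.02, 3.39 and 13.7 FPKM in P1 to P4. Its P libraries thus lay on both sides of the NP libraries, with means of 22.2 ± 12.3 FPKM in NP and 23.1 ± 33.1 FPKM in P (SD, n = 4). Uchl5, which trims ubiquitin chains at the proteasome, was at 0 in NP1, NP4, P1 and P4 and at most 4.23 FPKM elsewhere. Uchl4 stayed between 0.268 and 3.66 FPKM, and its value is uncertain, because it lies inside the span of Map2k1 on the other strand and its coding sequence is 96.1% identical to that of Uchl3 over 699 bases. The library kit marked no strand.

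Among the members that act on free ubiquitin chains or at the proteasome, Usp5 was the abundant gene. Usp5, which disassembles unanchored chains, had means of 59.9 ± 23.0 FPKM in NP and 67.9 ± 51.6 FPKM in P (SD, n = 4), with P3 at 135 and P4 at 10.7 FPKM as the extremes. Usp14, a subunit that associates with the proteasome, had means of only 2.81 and 2.38 FPKM. Usp13, a relative of Usp5, was near 0 in P and is one of the members without overlap. It measured 0.165, 1.42, 3.91 and 0.295 FPKM in NP1 to NP4 and 0.056, 0, 0 and 0 FPKM in P1 to P4. These values correspond to 4, 14, 216 and 17 recovered steps in NP and to 2, 0, 0 and 0 in P, so most of the NP signal came from NP3. The log2 fold change of Usp13 was -1.02 (SE 0.45), with an unadjusted p of 0.039 and an adjusted p of 0.483 in limma, and an exact permutation p of 0.029.

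Usp30 had the highest NP level after Uchl1. It sits on the mitochondrial outer membrane, where it opposes the ubiquitination that starts mitophagy. It measured 590, 568, 272 and 475 FPKM in NP1 to NP4 and 321, 349, 87.9 and 210 FPKM in P1 to P4. NP3 was the single NP library within the range of P, and P3 was the lowest of all. The means were 476 ± 145 FPKM in NP and 242 ± 119 FPKM in P (SD, n = 4), and the log2 fold change of -1.09 (SE 0.58) had an adjusted p of 0.533 in limma and an exact permutation p of 0.086. With the library number as a block, the unadjusted p in limma was 0.034 and the adjusted p 0.384. The fold change kept its sign in all 16 alternatives, although it came close to 0, at -0.13, under median centring. The other 3 members with a role in mitophagy or at mitochondria, Usp15, Usp8 and Usp35, also had fold changes below 0 as deposited, with a list median of -0.72, but under median centring or quantile normalization 2 of the 4 members lay above 0. Usp8 had means of 7.45 and 1.23 FPKM, Usp35 of 1.02 and 0.429 FPKM, and Usp50, which lacks peptidase activity, of 1.72 and 0.506 FPKM in NP and P. The spans of Usp8 and Usp50, introns included, overlap on opposite strands over 50202 bp. Whether their exons overlap was not examined, so it is not known how many reads could belong to either gene.

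Members that remove ubiquitin from histones H2A or H2B had a median log2 fold change of -1.20 over 7 tested genes, with 5 of 7 below 0 as deposited and under quantile normalization and 4 of 7 under median centring. Usp3, which acts on H2A, was the most abundant of them in NP. It measured 80.5, 63.7, 93.6 and 18.5 FPKM in NP1 to NP4 and 40.4, 38.8, 34.9 and 19.3 FPKM in P1 to P4, so that the lowest NP library lay below all P libraries. Usp22, the ubiquitin protease of the SAGA coactivator complex, measured 6.73, 17.3, 38.5 and 9.41 FPKM in NP1 to NP4 and 13.9, 51.6, 30.4 and 15.7 FPKM in P1 to P4, with overlapping ranges. Usp27x, an X-linked relative of Usp22 that can work in the same module, had the lowest log2 fold change of the list on log2(FPKM + 1), while Usp16 and Usp51 lay further apart on mean FPKM. Usp27x measured 17.5, 7.20, 28.8 and 105.6 FPKM in NP1 to NP4 and 0.896, 9.04, 13.1 and 1.83 FPKM in P1 to P4. NP2 fell within the range of P, and NP4 held most of the NP sum. The log2 fold change was -2.33 (SE 0.96), with an unadjusted p of 0.029 and an adjusted p of 0.457 in limma, and an exact permutation p of 0.086. Usp21, another H2A protease, had means of 23.2 ± 18.8 FPKM in NP and 8.97 ± 9.64 FPKM in P. Usp51, also X-linked, was above 0 only in NP3, at 1.75 FPKM, and in P4, at 29.1 FPKM. Usp16 reached 10.4 FPKM in NP3 and at most 1.02 FPKM in the other libraries. Usp49, with means of 9.06 and 3.71 FPKM, overlaps Gm20517 on its own strand.

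The close relatives Usp12 and Usp46, which need WD40-repeat partners for activity, differed in abundance and in spread. Usp46 measured 71.4, 45.2, 101.5 and 33.3 FPKM in NP1 to NP4 and 58.2, 90.8, 113 and 73.9 FPKM in P1 to P4, and the ranges overlapped. Usp12 measured 2.30, 2.65, 13.3 and 1.28 FPKM in NP1 to NP4 and 0.0459, 0.202, 0 and 81.4 FPKM in P1 to P4. Its P mean of 20.4 FPKM was therefore the value of P4, and the other P libraries lay below all NP libraries. The coding sequences of the pair are 77.7% identical over 1094 bases. Usp1, which acts on the DNA repair factors PCNA and FANCD2, had means of 11.3 ± 12.7 FPKM in NP and 9.79 ± 13.6 FPKM in P. Of the partners, Wdr20a was abundant in both datasets, with means of 244 FPKM in NP and 232 FPKM in P.

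Several regulators of p53 and the DNA damage response were abundant in both datasets. Usp4 measured 442, 427, 246 and 299 FPKM in NP1 to NP4 and 421, 68.7, 313 and 394 FPKM in P1 to P4, so that P2 alone lay below the NP range. Usp10, which deubiquitinates p53 and binds the stress granule proteins G3bp1 and G3bp2, had means of 152 ± 60.4 FPKM in NP and 92.1 ± 32.0 FPKM in P (SD, n = 4). It overlaps Gm20388 on its own strand, where reads could have been split. Usp28, a stabilizer of Myc, was steady in P at 68.0 to 110 FPKM and ranged from 69.3 to 191 FPKM in NP. Usp7, which controls Mdm2 and p53, had means of 27.6 ± 14.0 FPKM in NP and 39.0 ± 10.0 FPKM in P. Usp47 spanned 2.32 to 84.5 FPKM in NP and 2.50 to 69.8 FPKM in P, a spread within each dataset far wider than the distance between their means of 27.7 and 31.8 FPKM. Usp11, an X-linked relative of Usp4 and Usp15, had means of 20.7 ± 14.5 FPKM in NP and 8.94 ± 9.53 FPKM in P. Over the 8 genes of this list the median log2 fold change was -0.38 as deposited and 0.57 under median centring.

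Among the members of the endosome, the endoplasmic reticulum and membrane traffic, Usp19 had the highest level. It is partly anchored in the endoplasmic reticulum and lies 98146 bp from Usp4 on chromosome 9. It measured 199, 132, 184 and 193 FPKM in NP1 to NP4 and 277, 86.5, 168 and 878 FPKM in P1 to P4. P4 decided its mean of 352 ± 359 FPKM in P against 177 ± 30.4 FPKM in NP (SD, n = 4), and without P4 the log2 fold change turned from 0.48 to -0.13. Usp6nl carries the Usp name but is a GTPase-activating protein for Rab proteins and no protease. It measured 24.7, 4.49, 5.64 and 28.7 FPKM in NP1 to NP4 and 5.41, 2.13, 1.34 and 0 FPKM in P1 to P4. NP2 alone fell within the range of P, and the log2 fold change of -2.30 (SE 0.95) had an unadjusted p of 0.030 and an adjusted p of 0.460 in limma, with an exact permutation p of 0.057. Usp20 and Usp33, which are related to each other, had means of 5.81 to 8.74 FPKM in both datasets.

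The large proteases of Wnt, TGF-beta and cytoskeletal control included Usp9x and Usp34, which with Uchl1 had the highest fold changes on log2(FPKM + 1). Over the 7 tested genes of this list the median log2 fold change was 0.035 as deposited and 0.99 under median centring. As deposited, 3 of the 7 lay below 0. Usp9x, an X-linked gene required for early mouse development, measured 13.4, 17.6, 50.8 and 17.5 FPKM in NP1 to NP4 and 42.5, 50.3, 63.5 and 42.1 FPKM in P1 to P4. NP3 alone lay within the P range, and the other 3 NP libraries lay below all P libraries. The means were 24.8 ± 17.4 FPKM in NP and 49.6 ± 10.0 FPKM in P (SD, n = 4), and the log2 fold change of 1.15 (SE 0.63) had an adjusted p of 0.538 in limma and an exact permutation p of 0.114. Usp34, a regulator of Wnt signalling, measured 2.32, 2.04, 6.63 and 2.12 FPKM in NP1 to NP4 and 10.5, 8.29, 33.3 and 3.60 FPKM in P1 to P4. P4 lay below NP3 and above NP1, NP2 and NP4, and the log2 fold change of 1.53 (SE 0.88), the highest of the tested members, had an adjusted p of 0.557 in limma. The span of Usp34 overlaps that of Ahsa2 on the other strand over 2679 bp, and whether exons overlap there was not examined. Ahsa2 measured 12.3, 7.02, 62.6 and 1.07 FPKM in P1 to P4, and its part in the Usp34 values was not tested. Under quantile normalization the log2 fold change was 1.45 for Usp9x and 2.30 for Usp34. Median centring raised every fold change, so it could not have turned either of them below 0. Usp15, a protease of the TGF-beta pathway, had means of 58.7 ± 33.7 FPKM in NP and 59.2 ± 32.4 FPKM in P. Usp38 had means of 68.7 ± 17.6 FPKM in NP and 97.6 ± 46.4 FPKM in P, with P4 at 167 FPKM and the other P libraries at 71.5 to 76.2 FPKM.

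Usp39, a splicing factor that has lost peptidase activity, measured 427, 303, 223 and 126 FPKM in NP1 to NP4 and 320, 519, 137 and 5.24 FPKM in P1 to P4. P4 was far below every other library and P2 above all of them, so the P mean of 245 ± 224 FPKM (SD, n = 4) had a spread close to its own size. Without P4 the log2 fold change turned from -1.17 to 0.21. Usp53 had means of 32.8 ± 17.4 FPKM in NP and 14.3 ± 5.75 FPKM in P. Usp2, an ubiquitin protease linked to circadian and cyclin D1 control, measured 57.5, 31.2, 33.9 and 10.7 FPKM in NP1 to NP4 and 9.21, 9.54, 6.69 and 17.0 FPKM in P1 to P4. P4 exceeded NP4 and the groups otherwise did not overlap, with a log2 fold change of -1.42 (SE 0.71), an adjusted p of 0.525 in limma and an exact permutation p of 0.057. The span of Usp2, introns included, overlaps that of Rnf26 on the other strand over 28607 bp.

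Usp29 had the lowest log2 fold change of the members on log2(FPKM + 1), while voom gave -4.81 for Usp13 and -4.76 for Usp16 against -4.63 for Usp29. Usp29 is an imprinted gene expressed from the paternal allele in many tissues, neighbouring Peg3. It measured 6.72, 7.67, 55.1 and 3.83 FPKM in NP1 to NP4 and 0.0815, 0.478, 0.862 and 0.429 FPKM in P1 to P4. All NP libraries lay above all P libraries, and NP3 was the highest by a wide margin. The recovered steps were 56, 26, 1047 and 76 in NP and 1, 4, 10 and 3 in P, so the P values rested on few reads. The listed span of Usp29 was chr7:6961160-6963769, and its values fitted a searched length of 2610 bases. The annotated exons cover 18078 bases, so the values describe only a part of the gene. The means were 18.3 ± 24.6 FPKM in NP and 0.463 ± 0.319 FPKM in P (SD, n = 4). The log2 fold change of -3.01 (SE 0.93) had an unadjusted p of 0.0060 and an adjusted p of 0.405 in limma, and an exact permutation p of 0.029. The unadjusted p stayed under 0.05 in all 8 fits that left out a library, and the fold change stayed below 0 in all 16 alternatives, from -4.63 to -2.06.

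**Figure D4:**
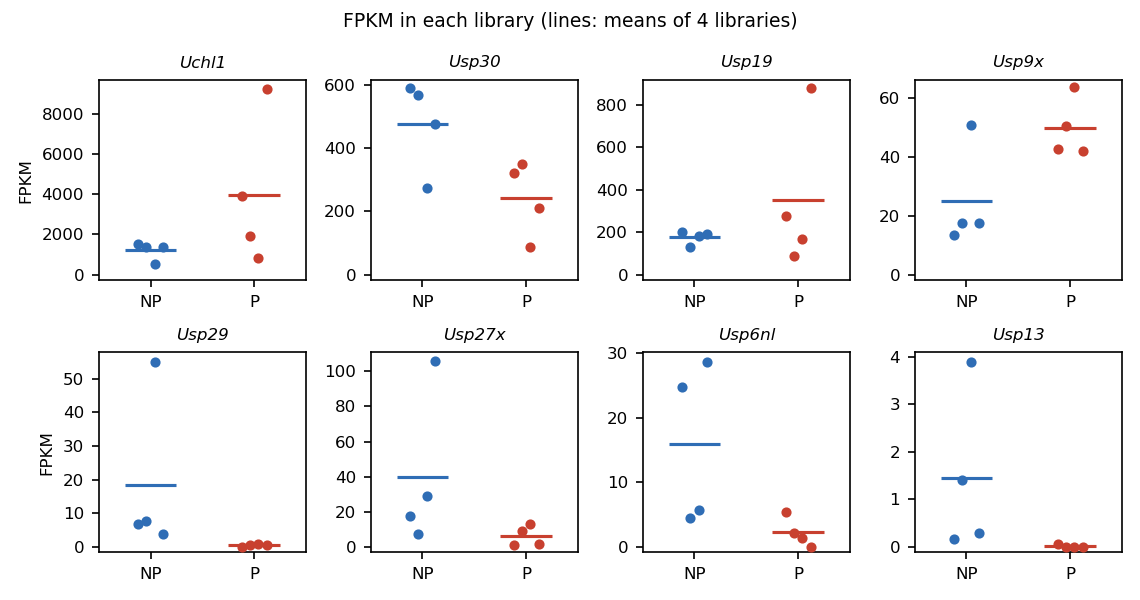
FPKM (vertical axes, linear, a separate scale for each gene) of 8 members in the NP (blue) and P (red) libraries, with lines at the means of 4 libraries. Usp29 and Usp13 do not overlap between the datasets, Usp9x overlaps through NP3 alone, and the P mean of Uchl1 and of Usp19 is drawn up by P4.

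The remaining members had lower levels or overlapping libraries. Usp31, Usp42 and Usp37 had means between 14.6 and 27.0 FPKM in both datasets and overlapping libraries. Usp43 and Usp48 had means of 14.3 and 13.0 FPKM in NP and of 5.58 and 2.39 FPKM in P. Usp24, Usp32, Usp36, Usp45 and Usp54 stayed below 10 FPKM on average in both datasets, and Usp25, Usp26 and Usp40 below 0.5 FPKM. Of 5 tested X-linked members, 3 had a fold change below 0 as deposited.

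The spread between libraries was wide for low members. More than 75% of the NP sum came from a single library for 8 members (20.4% of genes), and the same was true of the P sum for 11 members (31.2% of genes). The highest NP value was found in NP3 for 29 of 52 members (55.8%), against 32.4% of all genes tested. NP3 also had the most members above 0, 52 of 55, against 47 or 48 in the other NP libraries, and a scaling number of 7278851, close to the 7594637 of NP4. The part of NP3 in the differences was not tested beyond leaving it out, which left 29 of 50 members below 0.

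Deubiquitinases of the other families were tested in the same fit. Of 32 listed genes 30 were tested, and 0 of them were called by limma, 3 had an unadjusted p under 0.05 with NP higher, where 9.47% of all genes did, and 0 with P higher. Their median log2 fold change was -0.36 as deposited, 0.60 under median centring and 0.21 under quantile normalization. Otub1, an OTU-family protease, measured 401, 414, 265 and 179 FPKM in NP1 to NP4 and 89.6, 111, 79.1 and 149 FPKM in P1 to P4. Its groups did not overlap, as for 5.92% of all genes with NP higher, and its adjusted p in limma was 0.416. Fam63a, a MINDY-family protease, had means of 323 ± 139 FPKM in NP and 128 ± 70.1 FPKM in P (SD, n = 4). Stambp, an endosomal JAMM-family protease, was at 0 in all P libraries and at 0.145 to 5.41 FPKM in NP. Bap1, a nuclear hydrolase related to the Uch genes, had means of 197 ± 60.8 FPKM in NP and 306 ± 69.5 FPKM in P, with an adjusted p of 0.647 in limma.

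Binding partners of the Usp and Uch proteins were read from that fit too. Of 12 tested binding partners, 0 were called by limma. An unadjusted p under 0.05 with NP higher was found for 1, Adrm1, the proteasome receptor that docks Uchl5, where 9.47% of all genes had one. Adrm1 measured 17.3, 21.4, 7.49 and 10.3 FPKM in NP1 to NP4 and 5.87, 2.17, 1.06 and 1.76 FPKM in P1 to P4. The groups did not overlap, as for 5.92% of all genes with NP higher, and the adjusted p in limma was 0.441. Of the Usp10 partners, G3bp2 had means of 75.9 ± 28.6 FPKM in NP and 115 ± 44.4 FPKM in P. G3bp1 went the other way, with means of 6.18 ± 3.76 FPKM in NP and 4.53 ± 6.68 FPKM in P.

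**Figure D5:**
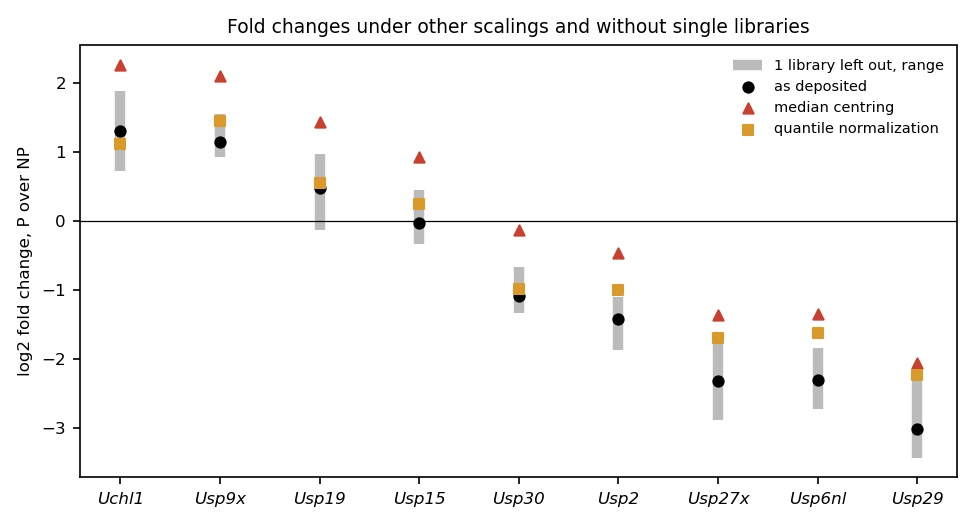
Log2 fold change of P over NP (vertical axis) of 9 members as deposited (black), after median centring (red) and after quantile normalization (orange), with grey bars for the range when each library was left out in turn. Usp29, Usp6nl, Usp27x, Usp2 and Usp30 stay below 0 and Uchl1 and Usp9x above 0 in all of these, while Usp15 turns to above 0 under both scalings and Usp19 to below 0 without P4. Median centring raises every fold change, so it cannot turn a gene from above 0 to below 0.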

How the data were processed

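After removal of ribosomal RNA, RNA of the NP and P parts was copied with random and oligo(dT) primers and amplified before library preparation. The authors trimmed reads with Trim Galore 0.4.1, checked quality with FastQC 0.11.5, used HISAT2 2.0.5 for mapping to GRCm38 and deposited FPKM values from Seqmonk for each gene and library. The sources used here do not name the gene annotation release. The deposited table of DESeq2 results and the table of expressed genes hold the authors' own comparisons and were not used.

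The 14292 genes whose mean exceeded 0.1 FPKM in NP or P were compared with limma 3.58.1 in R 4.3.3 (lmFit, eBayes with a trend, 2-sided) on log2(FPKM + 1), with Benjamini-Hochberg adjustment over all genes tested and a threshold of 0.1. Fold changes on this scale understate changes of low genes. Ratios of mean FPKM had 0.0001 added. Single genes were compared by 2-sided exact permutation tests over 70 assignments, which cannot give a p below 0.029. The fit was also run on simulated normal data, with shifts larger than that of any member planted in genes of low spread. That run does not show how well changes of the members could be found.

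Steps between FPKM values, recovered with annotated lengths for 25 members and searched lengths for 26 (tolerance 0.01 of a step), served as reads for voom; a searched length partly fixes that the values come out whole. Amplified reads without molecular identifiers are not independent molecules. Named were members with a mean above 20 FPKM in at least 1 dataset, an unadjusted p under 0.05 or no overlap, 28 in all, plus members of the role lists. Members and lists were chosen with earlier results of these data known. Motifs were searched in GENCODE transcripts, coding sequences were compared with blastn 2.17.0, and overlaps were taken from the table's coordinates. These overlaps are of whole gene spans with introns, and overlaps of exons were not computed. Python 3.11.15, pandas 2.3.3 and matplotlib 3.10.9 were used. The study describes the 4 profiles as independent biological replicates. Each profile gave an NP and a P library, and the main limma fit and the permutation tests left this pairing out. Some results are not reported here.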

Additional observations from a re-analysis of the deposited data

Results flagged for a closer look

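Of 56 groups of 4 libraries examined for the 28 named members, 10 held a library set apart from the other 3. The bar was Dixon's 95% value for the gap relative to the range. By chance it flags about 1 in 20 groups of normally distributed values. Linear FPKM values need not follow that distribution, and the share over all genes was not computed. The 10 groups can therefore not be set against a chance rate. In NP, NP3 stood apart for 4 members, being low for Uchl1 (517 FPKM, next 1383) and high for Usp12 (13.3 FPKM, next 2.65), Usp29 (55.1 FPKM, next 7.67) and Usp9x (50.8 FPKM, next 17.6). NP4 was low for Usp10 (61.8 FPKM, next 172). In P, P4 was high for Usp12 (81.4 FPKM, next 0.202) and Usp38 (167 FPKM, next 76.2), P3 was low for Usp10 (44.3 FPKM, next 105), and P1 was high for Uchl3 (72.2 FPKM, next 13.7) and Usp13 (0.056 FPKM, the others at 0). For Usp13 in P, with 3 libraries at 0, any value above 0 in the other library would have been set apart in this way. No cause was tested.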

How the results depend on the processing

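No setting tried called a member. Of the fold changes of the 28 named members under 16 alternatives, 421 kept their direction and their side of the threshold and 27 turned direction, and the counts of members detected did not move by over 1.5 times. Under median centring, members with an unadjusted p under 0.05 numbered 1 (NP higher, 1.24% of genes) and 9 (P higher, 19%), members without overlap 1 (0.812%) and 6 (12.1%), members over 2-fold apart 4 (7.47%) and 18 (34.8%), the member median was 0.60 and the Uchl1 difference 2.26. Fold changes turned to 0.53 (Usp42), 0.48 (Usp12), 0.77 (Usp5), 0.38 (Usp31), 0.28 (Usp10), 0.68 (Usp28), 0.20 (Usp3), 0.47 (Usp4), 0.92 (Usp15) and 0.11 (Uchl3). Under quantile normalization the same counts were 1 (4.04% of genes) and 2 (2.55%), 1 (2.53%) and 2 (4.62%), and 7 (13.4%) and 10 (18.9%), and fold changes turned to 0.049 (Usp42), 0.068 (Usp12), 0.24 (Usp5) and 0.24 (Usp15). Members with an unadjusted p under 0.05 and P higher numbered 1 without a filter (0.494% of genes), 1 with voom (0.756%) and 2 without the eBayes trend (0.707%). With the replicate block they numbered 1 (P higher, 0.812% of genes) and 6 (NP higher, 11.3%), with an unadjusted p in limma of 0.019 for Uchl1 and 0.034 for Usp30 and adjusted p of 0.348 and 0.384. Same-numbered libraries deviated together at r of 0.139, 0.052, 0.251 and 0.155, and each P library correlated best with the NP library of its own number, as did each NP library except NP2, which correlated best with P1 (0.136). Each of the 4 gradients was split into an NP and a P part, so the 8 libraries come as pairs by design. No source says that a number marks a shared gradient, and r was under 0.1 for number 2, which does not decide the pairing. The block was therefore kept as an alternative. Limma without the block and the permutation tests treat the 8 libraries as independent and leave the pairing out. Within every number, P was higher than NP for Uchl1, Usp9x and Usp34 and lower for Usp30 and Usp29, among others. Further members, such as Uchl3 and Usp4, had mixed directions.

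With each library left out in turn, members with an unadjusted p under 0.05 ranged from 2 (without NP3 or P1) to 4 with NP higher (7.51 to 10.9% of genes) and from 0 to 1 (without NP3, P3 or P4) with P higher (0.255 to 1.14%). Members without overlap ranged from 2 to 6 with NP higher (5 without NP2, 6 without NP4, 5 without P3, 4 without P4), where 7.9 to 11.4% of genes did, and from 0 to 2 with P higher (2 without NP3 or P3, 1 without P4), where 0.495 to 1.33% did. Members over 2-fold higher in P reached 10 without NP3 (21.6% of genes), and the Uchl1 difference ranged from 0.72 to 1.89. Fold changes that turned direction ranged from -0.14 to 1.43 for Usp47 (below 0 without NP1 or P3), from -2.04 to 0.081 for Usp12 (above 0 without NP3, P1 or P3), from -0.34 to 0.45 for Usp15 (above 0 without NP3, NP4 or P4) and from -0.75 to 0.12 for Usp4 (above 0 without P2). Without P4 alone, 4 turned, with ranges of -0.93 to 0.27 for Usp42, -1.92 to 0.21 for Usp39, -0.66 to 0.52 for Usp5 and -0.13 to 0.98 for Usp19. The causes were not tested. Values of a few steps carry the largest counting error.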
